A study of Homo sapiens with 24 samples.

Results

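The G1 cyclin and RB pathway genes are 10 genes that govern the passage of a cell from growth into DNA synthesis: CCND1, CCND3, CCNE1, CCNE2, CDK4, CDK6, CDKN2A, CDKN2B, RB1 and E2F1. They were chosen by name, and a ChIP-seq peak was assigned to a member when the deposited annotation gave that gene as its nearest transcription start site (TSS). By this rule 45 of 51504 BRG1 peaks, 24 of 22157 BRM peaks and 8 of 6489 SNF5 peaks belonged to the 10 genes, which are 10 of 20037 protein-coding genes of RefSeq.

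The series profiled the SWI/SNF chromatin remodelling complex and histone marks in RWPE1, a cell line of benign prostate epithelium, and asked whether SWI/SNF keeps its place on chromatin when cells make SCHLAP1, a noncoding RNA associated with prostate cancer. The 24 samples form 12 groups of 2. The groups used here are BRG1, BRM and SNF5 on MNase-cut chromatin of RWPE1 cells that carry a lentiviral SCHLAP1 construct, under selection with 2.5 ug/mL blasticidin. A SWI/SNF complex holds either BRG1 or BRM as its motor ATPase, together with other subunits, which in many but not all forms include SNF5. The LACZ control cells, the histone marks and the inputs were not analysed here, and the subunits were profiled in SCHLAP1 cells alone. What SCHLAP1 changes therefore cannot be told apart from the line's own state. As background, RWPE1 was immortalised with a human papillomavirus, whose oncoproteins target the RB and p53 proteins.

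Each subunit has 1 list of peaks, with positions and widths but no read counts, scores or replicate values. The depth behind the lists is unknown, no value below has a replicate spread, and the absence of a called peak does not show that the protein was absent. Among markers of cell types, BRG1 peaks named 3 of 4 basal (not ITGA6) and 2 of 2 general epithelial ones. They also named 3 of 6 markers of blood, endothelial and fibroblast cells. BRM named 3, 2 and 1 of these, and SNF5 1, 2 and 0. Over all protein-coding genes, BRG1 named 63.5%, BRM 49.6% and SNF5 19.7%, and marker lists this short cannot check the cell type. A peak near a gene does not show that the gene is expressed.

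In the G1 phase, D-type cyclins bind the kinases CDK4 and CDK6, which phosphorylate the retinoblastoma protein RB. RB holds E2F transcription factors in check, and once it is phosphorylated, E2F factors switch on genes of DNA synthesis, among them the E-type cyclins and E2F1 itself. The INK4 proteins made from CDKN2A and CDKN2B block CDK4 and CDK6, and a second product of CDKN2A, ARF, stabilises p53.

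The sequences below show the 250 bases upstream of the RefSeq start for genes where peaks of the lists lay beside, or ended near, the start. They are from RefSeq promoters of GRCh38.p14 and are written 5′ to 3′ on the strand of the gene. Starts of 8 members are in that table, and CCND1, CCNE2 and the main start of RB1 are named only. Capitals mark words of the E2F motif in E2F1, GC boxes in CCNE1, and the bases under an SNF5 peak at the inner start of CDKN2A and at CDKN2B.
E2F1 (chr20:33686386-33686635, minus strand): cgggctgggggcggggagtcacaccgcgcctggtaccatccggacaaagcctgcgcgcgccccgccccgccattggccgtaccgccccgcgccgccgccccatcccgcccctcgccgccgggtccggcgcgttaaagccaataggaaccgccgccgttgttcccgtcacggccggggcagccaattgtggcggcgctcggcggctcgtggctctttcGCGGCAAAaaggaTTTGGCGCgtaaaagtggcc
CCNE1 (chr19:29811741-29811990, plus strand): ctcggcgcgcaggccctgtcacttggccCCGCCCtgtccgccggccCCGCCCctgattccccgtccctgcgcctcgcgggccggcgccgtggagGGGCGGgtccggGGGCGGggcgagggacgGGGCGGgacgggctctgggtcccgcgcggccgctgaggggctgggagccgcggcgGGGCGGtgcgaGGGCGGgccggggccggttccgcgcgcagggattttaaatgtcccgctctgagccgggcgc
CDKN2A, inner start (chr9:21974858-21975107, minus strand): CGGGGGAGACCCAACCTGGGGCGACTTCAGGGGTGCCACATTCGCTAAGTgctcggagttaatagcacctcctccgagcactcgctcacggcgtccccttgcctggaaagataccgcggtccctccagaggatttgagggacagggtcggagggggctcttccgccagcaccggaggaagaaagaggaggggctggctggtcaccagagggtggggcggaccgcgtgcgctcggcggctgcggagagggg
CDKN2B (chr9:22009306-22009555, minus strand): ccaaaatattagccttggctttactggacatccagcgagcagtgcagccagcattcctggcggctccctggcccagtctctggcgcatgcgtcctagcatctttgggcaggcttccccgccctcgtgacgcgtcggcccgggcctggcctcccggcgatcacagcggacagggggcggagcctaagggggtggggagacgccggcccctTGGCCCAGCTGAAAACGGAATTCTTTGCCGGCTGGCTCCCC
The E2F words searched were TTTCCCGC, TTTCGCGC, TTTGCCGC and TTTGGCGC on either strand, and 3.48% of 22183 upstream windows of protein-coding genes held at least 1. E2F1 held 2, from base -33 to -26 and from -20 to -13, and none of the windows of the other members in the table did. The GC box, GGGCGG on either strand, was in 53.7% of all windows. CCNE1 held 7 and E2F1 held 5. A match is a description of the letters, not of a bound site.

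All 10 genes had peaks of both ATPases, and 7 had peaks of all 3 subunits. BRG1 peaks named 10 of 10 members, against 63.5% of protein-coding genes, and BRM peaks named 10 of 10, against 49.6%. SNF5 peaks named 7 of 10 members, against 19.7% of protein-coding genes. CCND3, CDK4 and E2F1 had no SNF5 peak by name. All 3 lists named 7 of 10 members and 17.9% of protein-coding genes. The members were chosen with results of these lists known, so these counts are a description, with no test.

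**Figure D1:**
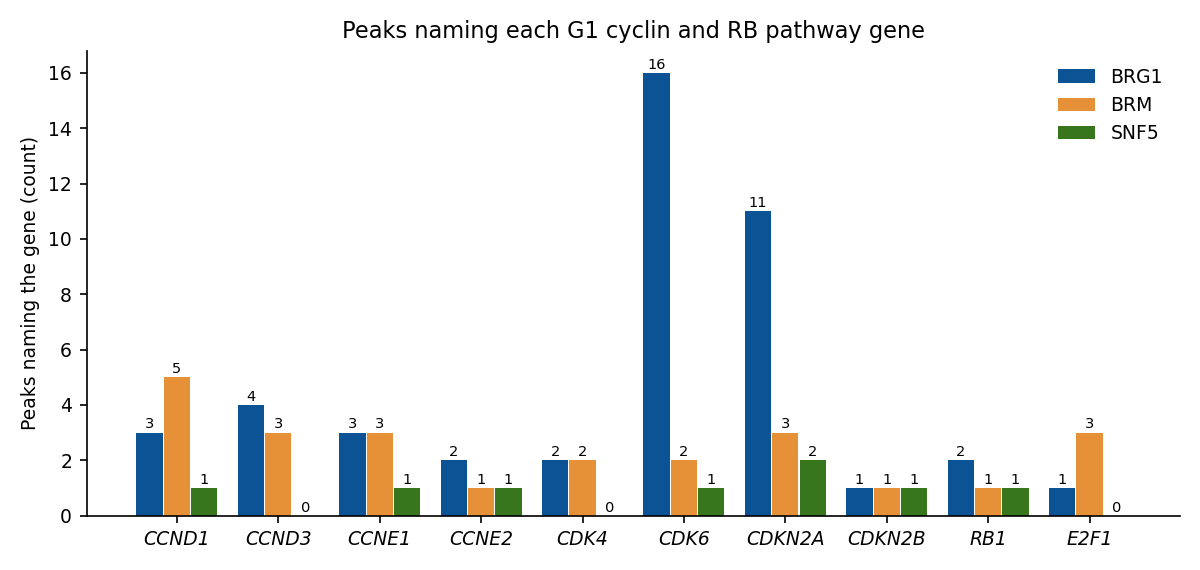
Number of peaks (y axis, count) that named each of the 10 genes (x axis) in the BRG1, BRM and SNF5 lists. CDK6 with 16 and CDKN2A with 11 BRG1 peaks stand above the other 8 genes, which had 1 to 4.

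The peaks were spread unevenly, and CDK6 and CDKN2A held 27 of the 45 BRG1 peaks. The other 8 genes had 1 to 4 BRG1 peaks each, where the median protein-coding gene named by BRG1 had 2. BRM peaks were more even, with 1 to 5 per gene, and CCND1 had the most. CCND1 and E2F1 were the 2 members with more BRM than BRG1 peaks.

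By position, member peaks of BRG1 lay mostly in introns and those of the other subunits mostly at promoters, taken by the deposited annotation as within 1 kb of a TSS. Of 45 BRG1 peaks 13 were at promoters, 29 in introns and 3 distal. CDK6 held 15 and CDKN2A 9 of those in introns. Of 24 BRM peaks 16 were at promoters, 2 in introns, 1 in an exon and 5 distal. Of 8 SNF5 peaks 7 were at promoters and 1 was distal. The promoter shares were 28.9% for member BRG1 peaks (95% exact binomial interval 16.4 to 44.3) and 37.3% for the whole BRG1 list, 66.7% (44.7 to 84.4) and 62.8% for BRM, and 87.5% (47.3 to 99.7) and 81.3% for SNF5. Each whole-list share lay within the interval of the members. Without CDK6 the BRG1 share was 41.4%. The intervals treat peaks as independent trials, which neighbouring peaks of 1 gene are not, and cover counting error only.

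Member peaks had a median width of 802 bp in the BRG1 list (interval of the median 492 to 1146), 628 bp in the BRM list (439 to 1037) and 260 bp in the SNF5 list (152 to 417). The medians of the whole lists were 667, 547 and 212 bp, within those intervals. Peaks of 5 members stood in the upper end of the BRG1 list: CCND1, CCND3, CCNE2, CDK6 and RB1 each had a BRG1 peak wider than 95% of the list. Of the 12724 protein-coding genes named by BRG1, 14.7% had such a peak, and a gene with more peaks has more chances of one. The widest BRG1 peak of a member was annotated as promoter in 7 of 10 genes, against 76.1% of the genes named by BRG1, so this count was near the background.

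**Figure D2:**
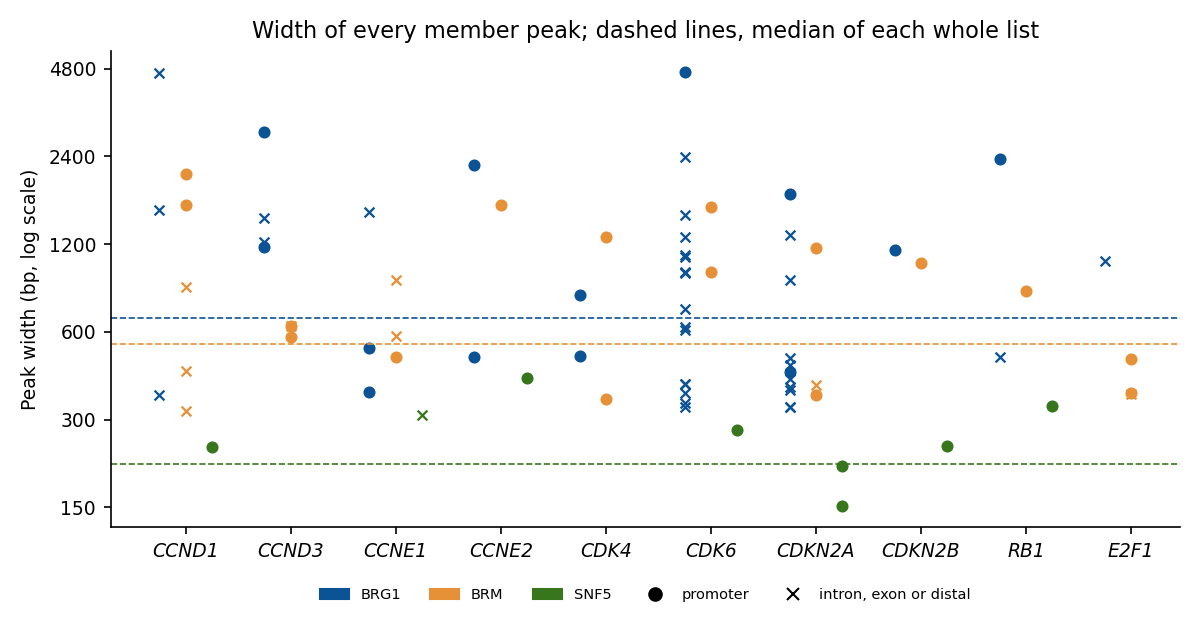
Width of every member peak in bp (y axis, log scale) by gene (x axis) and subunit (colour), with dots for promoter peaks and crosses for intron, exon or distal peaks. Dashed lines mark the whole-list medians of 667, 547 and 212 bp for BRG1, BRM and SNF5, and the BRG1 peaks of CCND1 (4654 bp) and CDK6 (4660 bp) lie highest.

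Among the D-type cyclins, CCND1, which encodes cyclin D1, was covered across its start and the sequence before it. A BRG1 peak of 4654 bp (chromosome 11, 69640091 to 69644744, hg38) reached from 1065 bp before the RefSeq start to 3588 bp after it, and was wider than 99.8% of the BRG1 list. It is annotated as intron, with its middle 1184 bp from the TSS. It held 2 BRM peaks of 1633 and 2086 bp, of which the first covered the start and the second lay downstream of it. A single SNF5 peak of 241 bp (69643071 to 69643311) lay 1915 bp after the start, inside the second BRM peak. The deposited distances place the second BRM peak 71 bp and the SNF5 peak 518 bp from a TSS of CCND1, so starts other than the RefSeq one were used in the annotation. Upstream, a BRG1 peak of 1574 bp that met 2 BRM peaks and a BRG1 peak of 365 bp that met 1 were annotated as distal. All 3 BRG1 peaks of CCND1 met BRM, and BRM peaks covered 79.0% of the bases under them. A further 2 BRG1 peaks and 1 BRM peak of 331 to 355 bp at the far end of the gene were named for ORAOV1, the next gene.

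CCND3, which encodes cyclin D3, had 4 BRG1 peaks spread over 109567 bp of a gene with several starts. The widest, 2902 bp at an inner start (chromosome 6, 41939654 to 41942555), held a BRM peak of 578 bp. The peak at the outermost start was 1173 bp wide and held a BRM peak of 627 bp. Between them, an intron peak of 1470 bp lay 25573 bp from the nearest TSS and enclosed a BRM peak of 629 bp, while an intron peak of 1221 bp met no other list. BRM peaks covered 27.1% of the bases under CCND3 BRG1 peaks. No SNF5 peak was named for CCND3, but the neighbouring gene TAF8 had a BRG1 peak of 648 bp and an SNF5 peak of 161 bp whose nearer edge was 1897 bp upstream of the CCND3 start.

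Of the E-type cyclins, which partner CDK2 at the entry into S phase, CCNE1 had its peaks beside the start and at a distant site. Its RefSeq start (29811991 on chromosome 19) was covered by no peak. The nearest BRG1 peak, of 374 bp, ended 372 bp upstream of the start, and the nearest BRM peak, of 491 bp, ended 397 bp upstream. A second BRG1 peak, of 530 bp, lay 83 bp farther upstream, and the BRM peak met both. The 250 bases of CCNE1 printed above thus lay under no peak of any list. The widest CCNE1 peak in the BRG1 list was distal and 1549 bp wide (29844222 to 29845770). The deposited distance of 23262 bp places it from a TSS of CCNE1 other than the RefSeq start. It met BRM peaks of 580 and 905 bp and enclosed the only SNF5 peak named for CCNE1, of 311 bp, which began 33221 bp downstream of the RefSeq start. The other 7 SNF5 peaks of the members were at promoters, whereas this one lay beyond the end of the gene.

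CCNE2, the gene of cyclin E2, had its wide peaks downstream of the outermost start. A BRG1 peak of 492 bp covered that start (94896693 on chromosome 8) and met no peak of the other lists. A BRG1 peak of 2238 bp (94893854 to 94896091) lay inside the gene and enclosed a BRM peak of 1638 bp that began 667 bp after the start and an SNF5 peak of 417 bp that began 1090 bp after it. The SNF5 peak of CCNE2 was the widest among the members, wider than 90.7% of the SNF5 list. The deposited distances from these 3 peaks to a TSS of CCNE2 were 223, 4 and 139 bp.

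**Figure D3:**
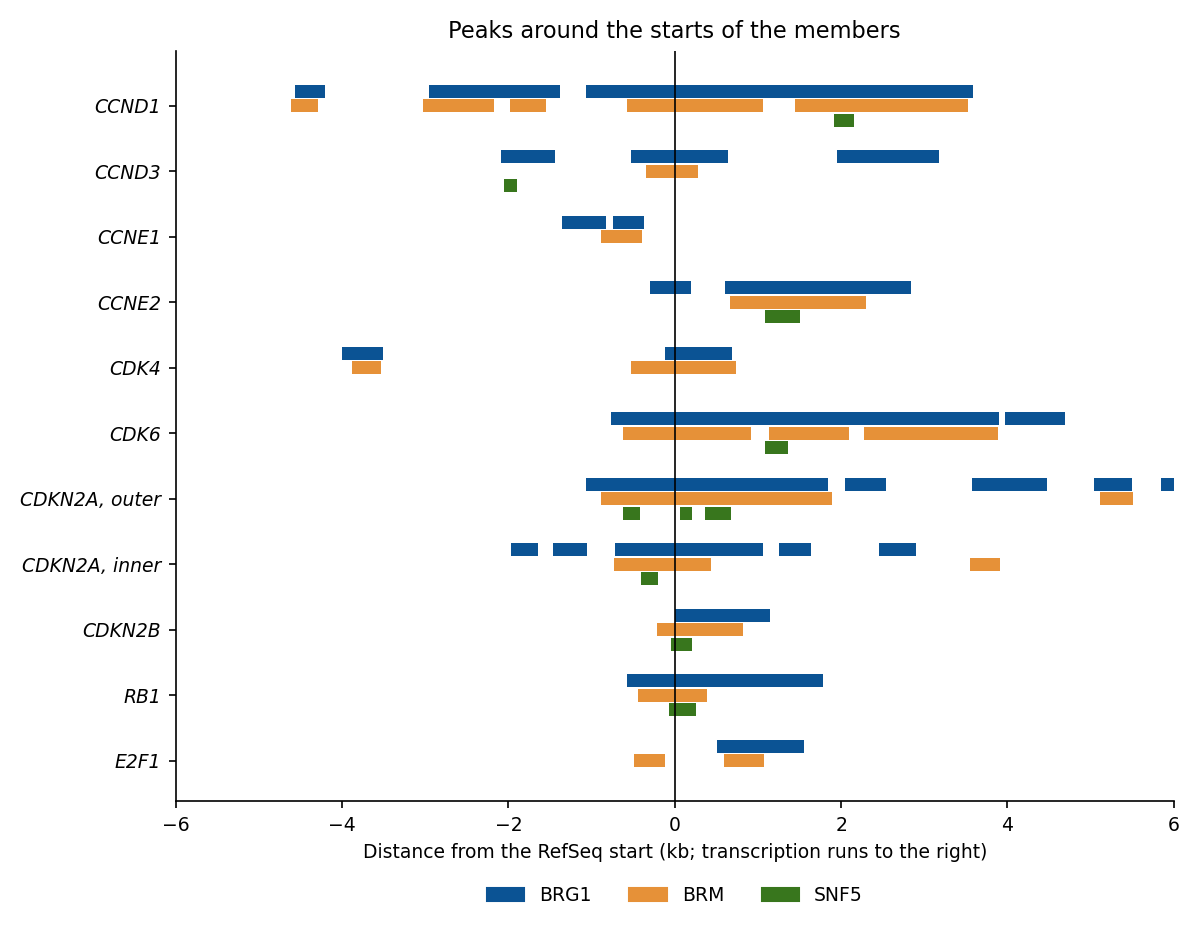
Peaks within 6 kb of a RefSeq start, drawn as bars by distance in kb along the direction of transcription (x axis), for the outermost start of each gene and the inner start of CDKN2A (y axis), with BRG1, BRM and SNF5 from top to bottom in each row. Peaks lie beside the start of CCNE1 and E2F1, where the nearest BRG1 edges are 372 and 502 bp away, and cover the start of CCND1, CDK4, CDK6 and RB1.

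The kinases of the D-type cyclins differed in extent. CDK4, a short gene of 4584 bp, had a BRG1 peak of 802 bp over its start (chromosome 12, 57751628 to 57752429) within a BRM peak of 1265 bp, so that the BRM peak was the wider. A second pair, of 494 bp in the BRG1 list and 352 bp in the BRM list, lay upstream near 57755822 and was also annotated as promoter of CDK4, 53 and 3 bp from a TSS. BRM peaks covered 89.0% of the bases under BRG1 peaks named for CDK4, the highest share of the 10 genes. No SNF5 peak was named for CDK4.

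CDK6, with 231653 bp the longest member, combined a broad promoter site shared by all 3 subunits with a series of intron sites of BRG1 alone. The promoter peak of BRG1 spanned 4660 bp (chromosome 7, 92832679 to 92837338), and only 78 BRG1 peaks of the whole list were at least as wide. It covered both RefSeq starts and met 3 BRM peaks of 1615, 962 and 1540 bp, the last named for AC002454.1. Meeting 3 or more BRM peaks was found in 0.654% of BRG1 peaks of all widths, and a wide peak has more room to meet several. An SNF5 peak of 276 bp lay 1081 bp downstream of the outer start, at the edge of the middle BRM peak. The other 15 BRG1 peaks of CDK6 lay in introns, 1674 to 40875 bp from the nearest TSS, with widths of 331 to 2395 bp and a median of 719 bp. None of the 15 met a BRM or SNF5 peak, whereas 20.2% of BRG1 peaks outside promoters met BRM over the whole list. The widest of them, 2395 bp (92765390 to 92767784), was wider than 96.8% of the BRG1 list. A further 2 BRG1 peaks in the gene, of 359 and 775 bp, were named for RNU6-10P. Only 84 protein-coding genes were named by more BRG1 peaks than CDK6, but per length its density was moderate, at 0.77 BRG1 peaks per 10 kb of the gene with 1 kb on either side, against a median of 0.32 and a 95th percentile of 1.65 over 14343 genes of at least 10 kb.

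The INK4 inhibitor genes lie next to each other on chromosome 9, and CDKN2A was the densest member. Within 1 kb of CDKN2A lay 12 BRG1 peaks, or 4.06 per 10 kb, which ranked 21 among the 14343 genes of at least 10 kb. Of these, 11 were named for CDKN2A. From 1 kb beyond CDKN2A to 1 kb before CDKN2B (21966752 to 22010313, 43562 bp), BRG1 had 13 peaks that covered 25.8% of the sequence, BRM had 5 that covered 13.2% and SNF5 had 5 that covered 2.56%. Density was not tested against the neighbourhood, and copy number of the locus in these cells was not analysed here.

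CDKN2A has an outer start, from which ARF is made, and an inner start, from which the kinase inhibitor p16 is made. The inner start (21974857) was covered by a BRG1 peak of 1780 bp (21973799 to 21975578) and a BRM peak of 1164 bp. An SNF5 peak of 208 bp lay inside both and covered the 50 bases in capitals above, from 201 to 250 bases upstream of the inner start. The outer start (21995324) was covered by a BRG1 peak of 2908 bp (21993482 to 21996389) and a BRM peak of 2781 bp, wider than 98.5% and 99.5% of their lists. Both were named for CDKN2B-AS1, an antisense RNA that starts there, and so were not counted among CDKN2A peaks. They held 3 SNF5 peaks of 310, 152 and 203 bp, of which only the middle one, 57 bp downstream of the outer start, was named for CDKN2A. Only 192 BRG1 peaks, 0.373% of the list, met 3 or more SNF5 peaks, again counted without regard to width. The other 10 BRG1 peaks named for CDKN2A were 331 to 1287 bp wide. Of the 9 in introns, 1 met a BRM peak and none met SNF5. A BRM peak of 363 bp at 21970951 met no BRG1 peak.

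CDKN2B, which encodes p15, had 1 peak in each list. The BRG1 peak of 1146 bp (22008156 to 22009301) ended 4 bp inside the RefSeq start used here. The BRM peak of 1037 bp reached from 218 bp upstream to 818 bp downstream and covered the start. The SNF5 peak of 244 bp covered the start and the 41 bases in capitals above, and was the only member SNF5 peak that was not wholly inside a BRG1 peak.

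**Figure D4:**
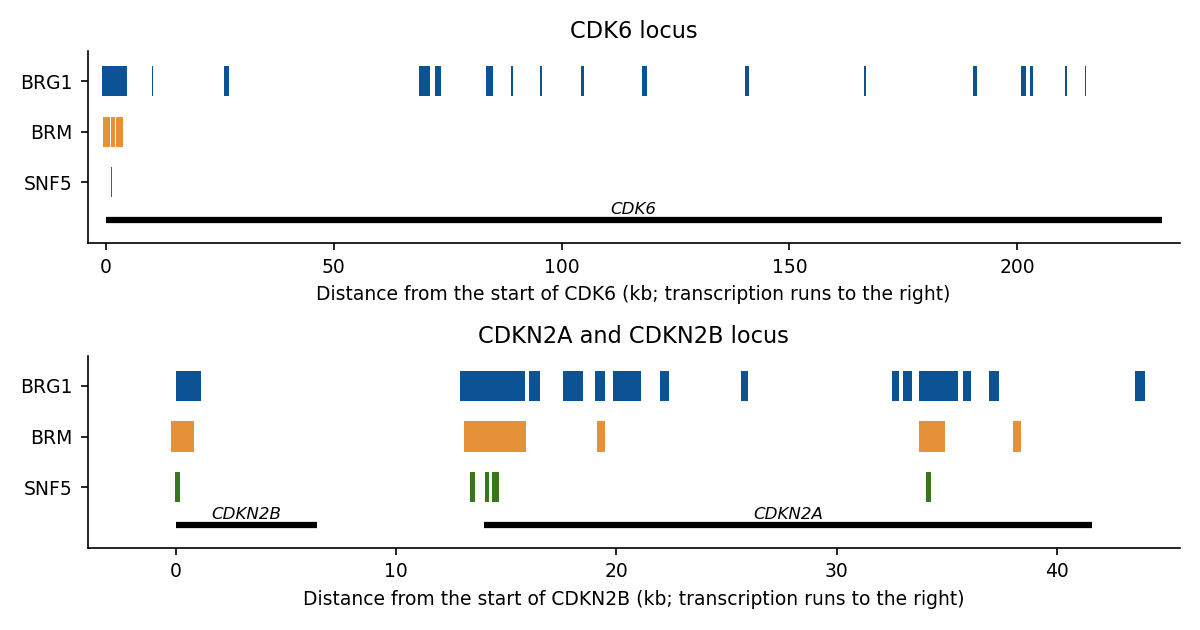
Peaks of the 3 lists (rows) along CDK6 and along CDKN2B and CDKN2A, by distance in kb from the start of CDK6 or CDKN2B in the direction of transcription (x axis), with black bars for the RefSeq genes. BRM and SNF5 peaks of CDK6 stay at its start while BRG1 has 15 named intron peaks. Along the INK4 locus with 1 kb on either side lie 13 BRG1, 5 BRM and 5 SNF5 peaks. A further BRG1 peak drawn beyond it was named for CDKN2A-AS1.

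RB1 had 1 site at its start where the 3 lists were nested. A BRG1 peak of 2359 bp (chromosome 13, 48303175 to 48305533) held a BRM peak of 826 bp, which held an SNF5 peak of 333 bp. All 3 covered the main RefSeq start (48303751). Among the RefSeq starts used here, only those of RB1 and CDKN2B lay under an SNF5 peak. By the deposited distances, SNF5 peaks also covered an annotated TSS of CCNE2, CDK6 and CDKN2A. The other RB1 peak in the BRG1 list was in an intron, 493 bp wide, and met neither other list. A further 4 BRG1 peaks inside RB1 were named for other genes, 2 for LPAR6, 1 for PCNPP5 and 1 for Metazoa_SRP. The largest of these, 1861 bp at LPAR6, a receptor gene inside RB1, also met no other list.

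E2F1, the factor that RB restrains, had its peaks on either side of the start. The BRG1 peak of 1051 bp (chromosome 20, 33684833 to 33685883) began 502 bp downstream of the RefSeq start (33686385) and held a BRM peak of 485 bp. A second BRM peak, of 370 bp (33686503 to 33686872), lay from 118 to 487 bp upstream and met no BRG1 peak. It covered 133 of the 250 bases of E2F1 printed above, and both E2F words in capitals lay between it and the start, under no peak of any list. The remaining BRM peak named for E2F1, of 367 bp, lay 16749 bp away in an exon and met no BRG1 peak. At the other end of E2F1, peaks of all 3 lists within 1 kb of the gene were named for NECAB3 (BRG1, 2247 bp, and BRM, 1250 bp) and AL121906.1 (SNF5, 170 bp).

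Of the 15 RefSeq starts of the members, BRG1 peaks covered 10, BRM peaks 10 and SNF5 peaks 2. Of the 12 starts in the promoter table, 7, 8 and 1 were covered, which are 58.3%, 66.7% and 8.33%. Of 22199 starts of protein-coding genes in the same table, BRG1 peaks covered 48.3%, BRM peaks 36.4% and SNF5 peaks 7.03%. The starts of CCNE1 and E2F1, an inner start of CCND3 and an inner start of RB1 were covered by no list.

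All 8 SNF5 peaks of the members lay on peaks of both ATPases. They met a BRG1 peak in 8 of 8 cases (lower end of the exact interval 63.1%), against 96.1% of the SNF5 list, and a BRM peak in 8 of 8, against 91.9%. BRG1 peaks wholly enclosed 7 of the 8, and BRM peaks 7 of the 8. The SNF5 peaks took 5.18 to 21.3% of the width of the BRG1 peak they met, and their centres lay 256 to 774 bp from its centre, with a median of 448 bp.

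In the other direction, BRG1 peaks met BRM in 18 of 45 cases, or 40.0% (25.7 to 55.7), against 35.7% of the BRG1 list. They met SNF5 in 7 of 45, or 15.6% (6.49 to 29.5), against 9.58%. BRM peaks met BRG1 in 21 of 24 cases, or 87.5% (67.6 to 97.3), against 92.2% of the BRM list, and SNF5 in 7 of 24, or 29.2% (12.6 to 51.1), against 21.9%. With at least 1 bp in common, each whole-list share lay within the interval of the members. The shares of both moved with the overlap asked for. With reciprocal overlap of 50%, 20.0% of member BRG1 peaks met BRM, against 19.0% of the BRG1 list, and 37.5% of member BRM peaks met BRG1, against 44.2% of the BRM list. With peaks up to 1 kb apart counted, 60.0% (44.3 to 74.3) of member BRG1 peaks met BRM. The share of the BRG1 list was 44.3%, at the lower end of that interval. By the same rule 95.8% (78.9 to 99.9) of member BRM peaks met BRG1, against 95.5% of the BRM list.

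Measured in bases, BRG1 peaks of the members covered 49809 bp, BRM peaks 19982 bp and SNF5 peaks 2182 bp. BRM peaks covered over 50% of the bases under BRG1 peaks named for the gene in 5 genes, CDK4 (89.0%), CCND1 (79.0%), CDKN2B (71.1%), CCNE1 (69.3%) and CCNE2 (60.0%). The share was 46.1% in E2F1, 29.0% in RB1, 27.1% in CCND3, 23.2% in CDK6 and 21.4% in CDKN2A. The order depends on which peaks are counted. Over BRG1 peaks of any name within 1 kb of the gene, the share was 42.2% in CDKN2A, where the peaks over the outer start then count, 45.1% in CCNE1, 52.6% in E2F1, 24.7% in CCND3, 21.8% in CDK6 and 13.6% in RB1, the lowest. SNF5 peaks covered at most 17.4% of these bases, in CDKN2B.

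Of 45 BRG1 peaks, 7 met both other lists (15.6%, against 9.22% of the BRG1 list), 11 met BRM only (24.4%, against 26.4%), none met SNF5 only and 27 met neither (60.0%, against 64.0%). The share that met neither was thus near that of the list, and its spread over the genes was uneven. CDK6 and CDKN2A held 24 of the 27. Of the 18 BRG1 peaks of the other 8 genes, 15 met BRM and 3 met neither. The high share that met BRM there follows from setting aside the genes with most peaks that met neither, so it is a description only. The 7 peaks that met both had a median width of 2238 bp, the 11 with BRM only one of 802 bp and the 27 with neither one of 493 bp. The whole list had medians of 1606, 1038 and 510 bp in these classes. At promoters, 11 of 13 member BRG1 peaks met BRM (84.6%, against 61.6% of promoter BRG1 peaks in the list) and 5 met SNF5 (38.5%, against 21.2%). Away from promoters, 7 of 32 met BRM (21.9%, against 20.2%) and 2 met SNF5 (6.25%, against 2.69%).

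**Figure D5:**
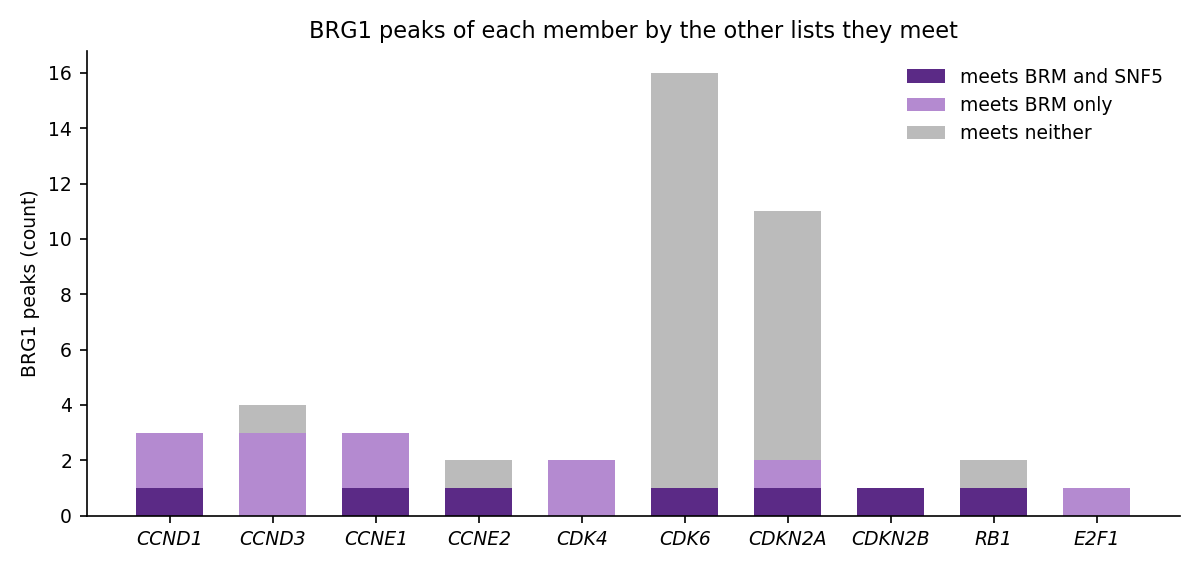
BRG1 peaks of each gene (y axis, count) stacked by whether they met BRM and SNF5 peaks, BRM peaks only, or neither, with at least 1 bp of overlap. Of the 27 BRG1 peaks that met neither, 15 stand at CDK6 and 9 at CDKN2A.

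Other genes of the pathway had peaks of BRG1 in 26 of 29 cases (89.7%), of BRM in 22 (75.9%) and of SNF5 in 9 (31.0%), against the 63.5%, 49.6% and 19.7% of protein-coding genes given above. All 9 genes with an SNF5 peak also had BRG1 and BRM peaks. By role, BRG1, BRM and SNF5 named 5, 5 and 3 of 5 further CDK inhibitors, 2, 2 and 1 of 2 RB-related pocket proteins, 8, 7 and 2 of 9 E2F and DP factors, and 4, 2 and 0 of 4 further cyclins, kinases and activators. They named 2, 2 and 1 of 3 genes for the turnover of G1 regulators, and 5, 4 and 2 of 6 genes of the MuvB complex and its partners, which work with pocket proteins on cell cycle promoters.

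The widest BRG1 peaks among these belonged to CDKN2C (3661 bp), CDKN1A (3340 bp), E2F3 (3115 bp) and CDKN1B (2904 bp). CDKN2C encodes the INK4 protein p18, and CDKN1A and CDKN1B encode p21 and p27, inhibitors of cyclin-dependent kinases outside the INK4 family. CDKN1A had 4 SNF5 peaks, CDKN1B 2, CDKN2C 2 and E2F3 1. The other genes with SNF5 peaks were LIN9 and LIN54 with 2 each, and RBL1, E2F7 and FBXW7 with 1 each. FBXW7 encodes the ubiquitin ligase subunit that marks cyclin E for degradation. E2F5 and LIN52 had no peak by name in any list, and by name CKS1B had a BRM peak of 1388 bp only. Within 1 kb of these genes lay BRG1 peaks named for other genes, 2 at E2F5, 1 at LIN52 and 2 at CKS1B. LIN52 also had 1 such BRM peak, and 2 BRM peaks lay within 1 kb of CKS1B, against 1 by name.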

How the data were processed

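ChIP-seq of RWPE1 cells was done by the authors after fixation in 0.3% formaldehyde for 30 min and quenching with 125 mM glycine, per the labels' protocols. The submitters' processing notes list the build hg38 and, with no role for any of them, MACS2, Bowtie2, deepTools 2.5.2 and SAMtools. The peak threshold, control, filter and any pooling of the 2 samples of a group were not given in the sources used here, as neither labels nor headers record them. The deposited lists give each peak's start and end (counted from 1), width, place, nearest TSS and distance, per the file headers. Width equalled end minus start plus 1 in all rows, the largest distance of a promoter peak was 998 bp, and the distances run from the middle of a peak. Of 77 member peaks, 34 had a distance within 100 bp of that to a RefSeq start used here, so the annotation also used other starts.

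Peaks were taken as meeting with at least 1 bp in common. Shares have exact (Clopper-Pearson) 95% intervals, and medians have intervals from order statistics. No test was run, since each subunit has 1 list. The planned designs assumed that a score might be present. The lists hold none, so width was used. For counts over all genes, names were looked up in RefSeq (GRCh38.p14) by symbol or unambiguous synonym, with the chromosome required to match. This placed 81.4% of BRG1 peaks, 86.9% of BRM peaks and 90.5% of SNF5 peaks. Starts came from the RefSeq promoter table, with 3 from the ends of the gene spans of CCND1, CCNE2 and RB1. The computation used scipy 1.17.1, numpy 2.4.6, pandas 2.3.3 and matplotlib 3.10.9 under Python 3.11.15. The overlap rules of 1 bp, 1 kb and 50% of the shorter peak, and the interval of the median, were tested on simulated data. The rule of 50% reciprocal overlap and the exact interval of a share were not. The members, the list of 29 other pathway genes and the alternatives were chosen with earlier results of these data known. Named were all members and the 4 other genes with the widest BRG1 peak. Also named were those with an SNF5 peak, those with no peak by name, and genes that peaks within 1 kb of a member name. CKS1B was named after its values were seen. One list of cell type markers is not reported here.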

Additional observations from a re-analysis of the deposited data

How the results depend on the processing

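Of 67 alternatives over 25 counts, shares and medians, 57 stayed within 1.5 times the count or within the interval of the share or median, and 10 moved. Without CDK6, the members had 29 BRG1 peaks in place of 45, and 58.6% of them met BRM. With promoters taken as within 3 kb of a TSS, the BRG1 promoter share was 48.9%. With reciprocal overlap of 50%, the share of BRG1 peaks that met BRM was 20.0% and SNF5 0.0%, that of BRM peaks that met BRG1 37.5% and SNF5 0.0%, and that of SNF5 peaks that met BRG1 or BRM 0.0% each. No SNF5 peak took over 21.3% of the width of the BRG1 peak it met, so such overlap was out of reach there. With peaks up to 1 kb apart counted, 60.0% of BRG1 peaks met BRM. Counting starts of the promoter table only, and BRM cover over peaks of any name near a gene, were chosen after seeing the data. No paired analysis was possible because each subunit has 1 list with no values by replicate, and for the same reason no replicate could be left out. Depth is unknown, so the number and width of peaks were not compared between subunits as amounts of protein.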
